A study of Mus musculus with 42 samples.

Results

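The kidneys of EpSA-fed mice were compared with those of chow-fed mice at zeitgeber time 1 (ZT 1, in hours after lights on). The members are 6 of the 42 libraries of the series: 3 kidneys of male, wild-type C57BL/6 mice on a high-fat diet that contained 3% EpSA, and 3 of male, wild-type C57BL/6 mice on standard chow. All mice were 6 weeks old when the diets began, ate them for 14 weeks, and lived on a cycle of 12 h light and 12 h dark. EpSA is the labels' name for the added compound, which they do not spell out. High-fat feeding without EpSA was not analysed here, so added fat and EpSA cannot be told apart in any difference between the diets. The same diets were sampled at ZT 5, 9, 13, 17, 21 and 25 as well, and ZT 25 is the clock hour of ZT 1 on the next day.

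The deposited tables give 1 value per gene, diet and time, read as the authors' mean over 3 mice in FPKM (sequenced fragments scaled for transcript length and library size). The difference between the diets at ZT 1 therefore has no replicate check. Of 56691 genes listed, 13344 had a mean of at least 1 FPKM over the 14 means and were compared. Each difference is EpSA minus chow on log2(FPKM + 1), where 1 is close to a doubling for a well expressed gene and the change of a low gene is understated. A gene was counted as lower or higher when this difference was at least 1. Summed FPKM was 414267 in EpSA ZT 1 and 402403 in chow ZT 1, inside the range of all 14 means, 400590 to 435621. Sequencing depth is unknown. Kidney identity was clear from markers: 16 of 16 proximal tubule and 8 of 8 podocyte (glomerular filter cell) genes were among those compared, with Miox at 755 FPKM in EpSA ZT 1 and 586 in chow ZT 1. The chow ZT 1 and chow ZT 13 means stood apart from the other 12 in the genes of antigen presentation and in the interferon-gamma GTPases. Every ZT 1 result on those genes rests on the chow ZT 1 mean. For interferon-stimulated genes it rests on both ZT 1 means. As a list mean on log2(FPKM + 1), chow ZT 1 was highest (3.17), and EpSA ZT 1 (2.17) was the lowest EpSA mean, in a range up to 2.92.

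Interferons are secreted alarm proteins. Interferon-gamma, made mainly by T and NK cells, acts largely through gamma-activated sites (GAS) in the DNA near its target genes, and type I interferons act largely through interferon-stimulated response elements (ISRE). Their target genes include GTPases that attack the vacuoles of intracellular microbes, the immunoproteasome that cuts proteins into peptides, and the MHC class I and class II molecules that show peptides to T cells. In the kidney, resident macrophages and dendritic cells carry class II at rest, and tubule cells can be induced to express it.

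The letters upstream of interferon-gamma GTPase genes are shown because those genes were among the lowest at ZT 1 and most of their windows hold interferon-type motifs, which those of the class II genes, also among the lowest, mostly do not. The windows are the 250 bases before each gene's start, from RefSeq on GRCm38.p6, printed 5′ to 3′ on the gene's strand. Capitals mark matches, on either strand, to an ISRE-like core (GAAANNGAA) or a GAS-like site (TTCNNNGAA, which reads the same on both strands and can overlap the ISRE-like core). The first 4 belong to interferon-gamma GTPases, whose differences at ZT 1 were -2.97 (Igtp), -2.96 (Tgtp1), -2.37 (Irgm2) and -2.04 (Gbp2). The positions are chr11:58199306-58199555 (plus strand) for Igtp, chr11:48992247-48992496 (minus strand) for Tgtp1, chr11:58214727-58214976 (plus strand) for Irgm2 and chr3:142620413-142620662 (plus strand) for Gbp2.
Igtp: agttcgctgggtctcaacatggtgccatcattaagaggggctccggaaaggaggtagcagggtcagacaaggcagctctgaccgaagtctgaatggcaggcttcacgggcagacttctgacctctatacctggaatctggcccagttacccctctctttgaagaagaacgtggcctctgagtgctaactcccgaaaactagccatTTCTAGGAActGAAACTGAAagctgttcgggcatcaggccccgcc
Tgtp1: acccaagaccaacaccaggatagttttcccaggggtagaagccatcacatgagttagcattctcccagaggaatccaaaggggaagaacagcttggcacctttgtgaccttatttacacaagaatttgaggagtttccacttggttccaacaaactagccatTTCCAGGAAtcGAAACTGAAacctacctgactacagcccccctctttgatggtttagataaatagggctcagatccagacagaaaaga
Irgm2: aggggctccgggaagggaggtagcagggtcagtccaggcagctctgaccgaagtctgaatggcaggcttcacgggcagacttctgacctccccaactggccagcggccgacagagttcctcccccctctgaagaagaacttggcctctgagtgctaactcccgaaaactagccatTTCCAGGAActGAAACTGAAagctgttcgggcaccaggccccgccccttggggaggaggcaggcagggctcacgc
Gbp2: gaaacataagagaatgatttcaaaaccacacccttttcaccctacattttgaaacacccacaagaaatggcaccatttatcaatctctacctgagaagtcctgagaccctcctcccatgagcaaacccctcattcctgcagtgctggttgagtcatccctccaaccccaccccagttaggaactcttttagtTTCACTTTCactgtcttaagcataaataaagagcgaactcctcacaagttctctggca

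In Igtp, Tgtp1 and Irgm2 the GAS-like site stood directly upstream of the ISRE-like core, and the ISRE-like core ended 25, 68 and 55 bases before the end of the window. Igtp and Irgm2 lie close together on chromosome 11 and share a run of 55 identical bases in these windows, so they are not independent examples. Tgtp1 shares a run of 20 bases with Irgm2, which holds the GAS-like site, and a run of 14 bases with Igtp. Tgtp1 may thus not be an independent example either. Gbp2, on chromosome 3, held the core on the opposite strand, 49 bases before the end, and no GAS-like site. A class II gene, H2-DMb2 at chr17:34144999-34145248 (plus strand), and an immunoproteasome gene, Psmb8 at chr17:34197945-34198194 (plus strand), are given for contrast: each had a GAS-like site and no ISRE-like core.
H2-DMb2: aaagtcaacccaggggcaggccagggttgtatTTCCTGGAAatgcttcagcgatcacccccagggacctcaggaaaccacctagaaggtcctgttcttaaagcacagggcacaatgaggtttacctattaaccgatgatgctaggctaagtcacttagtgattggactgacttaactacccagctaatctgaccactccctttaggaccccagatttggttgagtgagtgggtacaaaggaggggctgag
Psmb8: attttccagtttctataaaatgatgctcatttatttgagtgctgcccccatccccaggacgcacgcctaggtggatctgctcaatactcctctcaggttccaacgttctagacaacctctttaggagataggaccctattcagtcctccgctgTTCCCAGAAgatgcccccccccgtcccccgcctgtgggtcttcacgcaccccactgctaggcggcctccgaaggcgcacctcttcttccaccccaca

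Over the lists, the ISRE-like core was present in 9 of 10 windows of 9 GTPase genes (90.0%), in 10 of 27 windows of 22 interferon-stimulated genes (37.0%), in 4 of 11 windows of 10 MHC class I genes (36.4%), and in 0 of 6 windows each of 5 class II and 5 immunoproteasome genes. Among all 32841 windows of that length, 2342 held it (7.13%). The GAS-like site was present in 6 of 10 GTPase windows (60.0%), 5 of 27 interferon-stimulated windows (18.5%), 1 of 11 class I windows (9.09%), 1 of 6 class II windows and 1 of 6 immunoproteasome windows (16.7% each), against 2306 of all windows (7.02%). A match is a run of letters and not a measured binding site. Gbp4, Gbp6, Gbp9 and Iigp1 are named without a window.

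At ZT 1, 110 genes were lower in EpSA than in chow by at least 1 (0.824% of those compared) and 30 were higher (0.225%). The median difference of all genes was -0.03. Of all 13344 genes compared, 7550 were below 0 and 5762 above 0, the background for each count of list members below or above 0. Of the 110 lower genes, 44 belonged to 5 lists of interferon and antigen presentation genes, out of 68 members compared, and 12 more to lists of immune cell markers, 56 in all. The genes nearest the limit had differences of -1.008 inside it and -0.999 outside it on the lower side, and 1.009 and 0.998 on the higher side. Counts of this size were not particular to ZT 1: at ZT 13, 91 genes were lower and 38 higher, and at ZT 21, 112 were lower and 120 higher. A day later, at ZT 25, 24 genes were lower in EpSA (0.18%) and 31 were higher (0.232%). Only 1 of the 110 lower genes, the lipid transporter gene Mfsd2a, was also lower by at least 1 at ZT 25, and the median difference of the 110 there was -0.01.

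**Figure D1:**
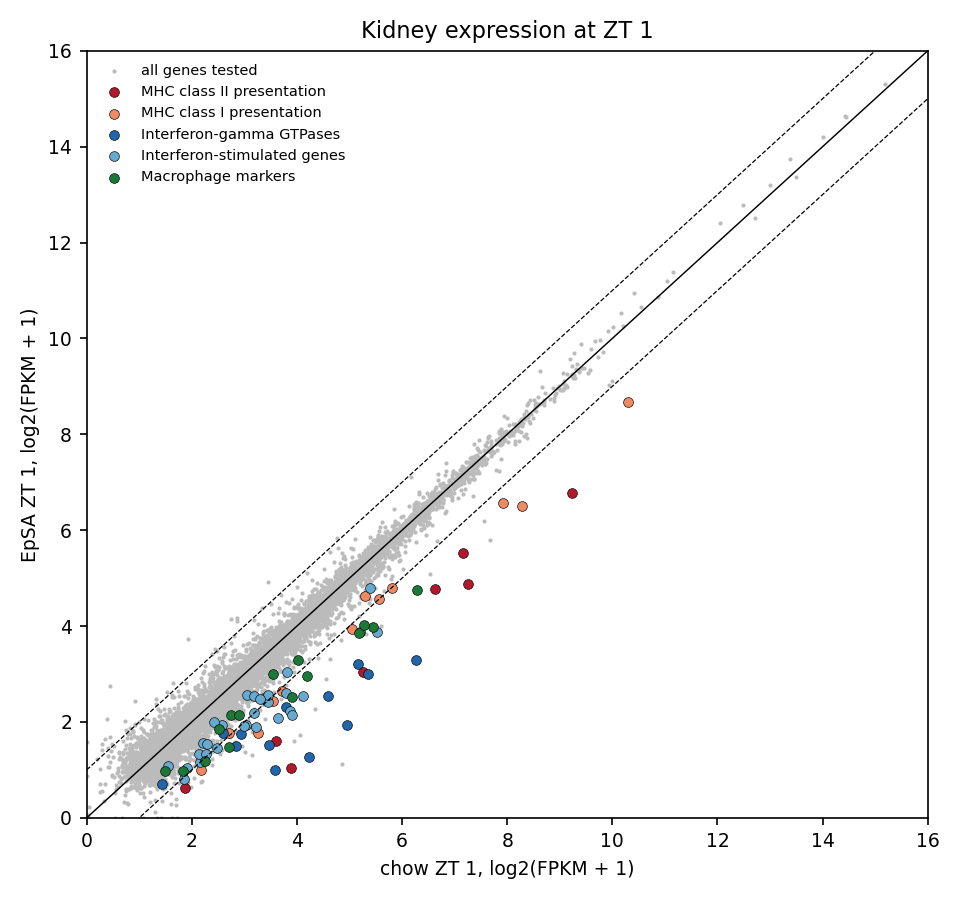
Each point is a gene, with its chow ZT 1 mean on the x axis and its EpSA ZT 1 mean on the y axis, both as log2(FPKM + 1), for 13344 genes; the solid line marks equal values and the dashed lines a difference of 1. The coloured members of 5 gene lists lie below the line of equal values, with 8 of 8 class II genes below the lower dashed line.

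MHC class II genes had the lowest mean difference of the 39 lists, -2.08 over 8 members compared, and 8 of 8 were lower by at least 1. Cd74, the invariant chain that escorts class II molecules, was at 109 FPKM in EpSA ZT 1 and 604 FPKM in chow ZT 1. H2-Ab1, a class II beta chain, was at 28.5 FPKM in EpSA ZT 1 against 151 FPKM in chow ZT 1. Both diets had near-equal levels a day later: Cd74 was at 110 FPKM in EpSA ZT 25 and 116 FPKM in chow ZT 25. H2-DMb2, which with H2-DMa forms the H2-M complex that loads peptides onto class II, had the lowest difference of the list, -2.84, from 1.06 FPKM in EpSA ZT 1 and 13.8 FPKM in chow ZT 1. Ciita, the transactivator that class II transcription depends on, was at 0.55 FPKM in EpSA ZT 1 and 2.66 FPKM in chow ZT 1, a difference of -1.24. Its mean over the 14 means was 1.02 FPKM, and its median over the 13 means other than chow ZT 1 was 0.68 FPKM. Ciita thus reached the limit of 1 FPKM only with its high chow means, and the filter favoured its place among the 8 of 8. H2-Oa, H2-Ob and H2-Eb2 had means under 1 FPKM and were not compared.

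Over the day, class II levels in EpSA kidneys were flat while chow kidneys had 2 high times. Cd74 in EpSA was at 109, 133, 101, 109, 114, 118 and 110 FPKM at ZT 1, 5, 9, 13, 17, 21 and 25. In chow it was at 604, 273, 301, 796, 99.0, 111 and 116 FPKM at the same times. The chow means at ZT 1, 5, 9 and 13 lay above every EpSA mean, and those at ZT 17, 21 and 25 lay within or below the EpSA range. For the class II list, chow ZT 1 exceeded chow ZT 25 by 2.01 on average, whereas EpSA ZT 1 differed from EpSA ZT 25 by -0.08.

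Interferon-gamma GTPases had a mean difference of -1.95 at ZT 1, with 11 of 13 members compared lower by at least 1. These genes encode 2 families, the immunity-related GTPases (Igtp, Irgm1, Irgm2, Iigp1, Tgtp1 and Tgtp2) and the guanylate-binding proteins (Gbp genes). Iigp1 had the lowest difference of any gene with an informative name, -3.02, from 2.81 FPKM in EpSA ZT 1 and 29.9 FPKM in chow ZT 1. Igtp was at 8.82 FPKM in EpSA ZT 1 and 76.0 FPKM in chow ZT 1. Gbp6 was at 1.01 FPKM in EpSA ZT 1 and 10.9 FPKM in chow ZT 1. Gbp9 and Gbp5 were nearer to equal, with differences of -0.81 and -0.74. Tgtp1 and Tgtp2, and several Gbp genes, are near-identical copies whose reads may have been split between them, so the value of any single copy is uncertain.

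Igtp showed the same daily course as Cd74. In EpSA it was at 8.82, 12.4, 10.7, 10.2, 14.8, 12.9 and 8.97 FPKM from ZT 1 to ZT 25, and in chow at 76.0, 18.0, 21.4, 78.1, 10.6, 8.65 and 12.0 FPKM. Chow ZT 1 and ZT 13 lay far above the other 12 means. The 13 GTPases summed to 47.2 FPKM in EpSA ZT 1 and 275 FPKM in chow ZT 1, and to 49.8 FPKM in EpSA ZT 25 and 54.1 FPKM in chow ZT 25.

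**Figure D2:**
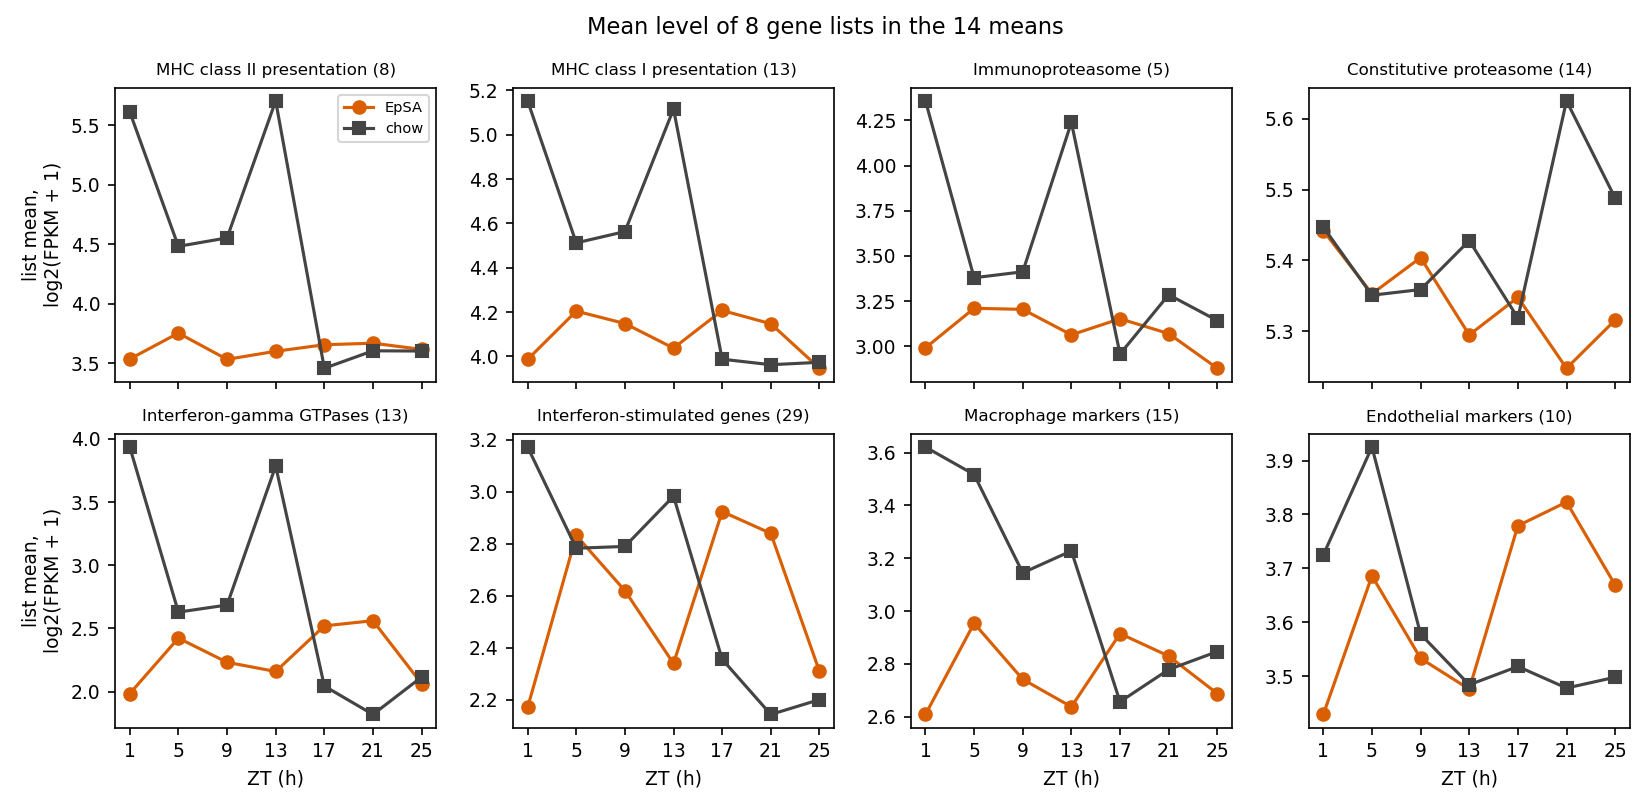
Mean log2(FPKM + 1) of 8 gene lists (y axis) at each zeitgeber time in hours (x axis), with 1 point per diet and time, EpSA as orange circles and chow as dark squares; numbers in brackets are the genes compared. The class II list is at 3.54 in EpSA ZT 1 and 5.61 in chow ZT 1, and at 3.62 in EpSA ZT 25 and 3.60 in chow ZT 25; the axes do not start at 0.

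MHC class I and its peptide supply were lower too. The class I list had a mean difference of -1.17, with 9 of 13 members lower by at least 1. H2-K1, a class I heavy chain, was at 90.1 FPKM in EpSA ZT 1 and 309 FPKM in chow ZT 1. B2m, the light chain shared by class I molecules, was at 407 FPKM in EpSA ZT 1 and 1254 FPKM in chow ZT 1. Reads of H2 heavy chain genes may be shared between near-identical copies, which does not apply to B2m. Tap1 and Tap2, which pump peptides into the endoplasmic reticulum, had differences of -1.50 and -1.07. Nlrc5, the transactivator of class I genes, was at 1.00 FPKM in EpSA ZT 1 and 3.54 FPKM in chow ZT 1.

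The inducible and the standard proteasome parted. Psmb8, Psmb10 and Psmb9, the catalytic subunits that replace the standard ones in the immunoproteasome, had differences of -2.09, -1.67 and -1.63. Psmb8 was at 3.81 FPKM in EpSA ZT 1 and 19.4 FPKM in chow ZT 1, against 3.97 FPKM in EpSA ZT 25 and 4.33 FPKM in chow ZT 25. Psme2 and Psme1, subunits of the PA28 activator, had differences of -0.76 and -0.69. The 14 subunits of the constitutive proteasome compared ranged from -0.11 to 0.12 with a mean of -0.01, and 0 of 14 were lower by at least 1.

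Interferon-stimulated genes had a mean difference of -1.001, with 29 of 29 members compared below 0 and 13 lower by at least 1. Irf7 and Irf1, transcription factors of the response, had differences of -1.57 and -1.18. Isg15, a ubiquitin-like modifier, was at 3.71 FPKM in EpSA ZT 1 and 13.6 FPKM in chow ZT 1, and Bst2, which tethers budding virus particles, was at 13.8 FPKM in EpSA ZT 1 and 45.3 FPKM in chow ZT 1. Ifi47 (-1.77), Ifit1 (-1.34) and Ifit3 (-1.33) followed. The smallest differences of the list were those of Trim30a (-0.44) and Herc6 (-0.47). Mx1, Mx2 and Oas3 had means under 1 FPKM. Ifng, the gene for interferon-gamma itself, also had a mean under 1 FPKM and was not compared.

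The interferon-stimulated, GTPase and class II lists were all lower in EpSA at ZT 13 and all higher at ZT 17 and 21. The interferon-stimulated list was at 2.17 in EpSA ZT 1 and 3.17 in chow ZT 1, as a mean level on log2(FPKM + 1). Its differences were -1.001 (ZT 1), -0.64 (ZT 13), 0.57 (ZT 17) and 0.70 (ZT 21). For the GTPases the list differences were -1.95 (ZT 1), -1.63 (ZT 13), 0.48 (ZT 17) and 0.74 (ZT 21). Class II genes gave -2.08 (ZT 1), -2.11 (ZT 13), 0.20 (ZT 17) and 0.06 (ZT 21). Of the 110 genes lower at ZT 1, 42 were also lower by at least 1 at ZT 13.

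Chemokine and complement genes were mostly below 0, with few past 1. Of 13 chemokine and cytokine genes compared, 13 were below 0 and 2 were lower by at least 1, with a mean of -0.67. Cxcl10, a chemokine induced by interferon, was at 2.69 FPKM in EpSA ZT 1 and 7.74 FPKM in chow ZT 1, and Ccl5, a T cell chemokine, was at 1.58 FPKM in EpSA ZT 1 and 4.20 FPKM in chow ZT 1. Cxcl9 had a difference of -0.97. Among 10 complement genes the mean was -0.43, 8 were below 0 and C4b alone was past 1, at 1.47 FPKM in EpSA ZT 1 and 7.89 FPKM in chow ZT 1. Serping1, the C1 inhibitor, had -0.63, C1ra, a protease of the C1 complex, -0.62, and C3, the central component, -0.56. Cfb and Cfi, of the alternative pathway and its control, had differences of -0.09 and 0.16.

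Macrophage markers were lower in EpSA ZT 1 in 15 of 15 cases, with a mean of -1.01 and 8 lower by at least 1. Lyz2, the macrophage lysozyme, was at 26.04 FPKM in EpSA ZT 1 and 77.31 FPKM in chow ZT 1. C1qa, C1qb and C1qc, which encode the chains of complement C1q and are made by tissue macrophages, had differences of -1.33, -1.47 and -1.38. Adgre1, which encodes the F4/80 antigen, had -1.07. Csf1r, the receptor for the macrophage growth factor, had a smaller difference of -0.54, from 7.0 FPKM in EpSA ZT 1 and 10.6 FPKM in chow ZT 1, and Mrc1 had -0.51. In bulk tissue, fewer cells of a type and less RNA per cell cannot be told apart.

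The 15 macrophage markers summed to 111 FPKM in EpSA ZT 1 and 281 FPKM in chow ZT 1. Over all times the sum ranged from 111 to 151 FPKM in EpSA means and from 117 to 281 FPKM in chow means, and in chow it was 258 FPKM at ZT 5 but 142 FPKM at ZT 25. At ZT 5 the macrophage list had a difference of -0.56, the class II list -0.73 and the GTPase list -0.21. Among T and NK cell markers 4 of 14 were compared and 4 were below 0, with Nkg7 at -1.03, and their sum was 4.71 FPKM in EpSA ZT 1 and 11.5 FPKM in chow ZT 1. The defining T cell genes Cd3d, Cd3e, Cd3g, Cd4 and Cd8a had means under 1 FPKM. The part of immune cell numbers in the lower interferon and antigen presentation genes was not tested.

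As list means, other blood-borne and neighbouring cells differed less than macrophages, though single genes did not. The 6 B and plasma cell markers had a mean of -0.64, with 2 lower by at least 1. Ighm was at 4.56 FPKM in EpSA ZT 1 and 15.7 FPKM in chow ZT 1, a difference of -1.59. Iglc2 was at 0.56 FPKM in EpSA ZT 1 and 2.94 FPKM in chow ZT 1, a difference of -1.34. For both, EpSA ZT 1 was the lowest of the 14 means. Igkc had -0.32 and Jchain 0.21. Dendritic cell markers had a mean of -0.45 over 4 members, with Clec9a lowest at -0.91. Red blood cell genes had a mean of -0.14 over 7 members. Fat tissue markers had a mean of 0.31, with 7 of 9 above 0, 0 of 9 past 1 and Lep, the leptin gene, at -0.77, and summed to 263 FPKM in EpSA ZT 1 and 183 FPKM in chow ZT 1, against 183 FPKM in EpSA ZT 25 and 276 FPKM in chow ZT 25. The share of surrounding fat in each kidney sample was not tested. Adrenal markers had differences from -0.08 to 0.17 at ZT 1, and Hsd3b1 and Cyp21a1 were at 0.16 and 0.02 FPKM in EpSA ZT 1 and at 0.04 and 0.01 FPKM in chow ZT 1. The 3 adrenal genes compared summed to 95.4 FPKM in EpSA ZT 9 and to 1.06 to 1.63 FPKM in the other means. Genes near 0 at ZT 1 were compared because of the EpSA ZT 9 mean.

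Among kidney cell types, thick ascending limb and distal tubule markers had a mean of -0.36, with 10 of 11 below 0 and 0 past 1. Umod, which encodes uromodulin, the most abundant protein of normal urine, was at 556 FPKM in EpSA ZT 1 and 1021 FPKM in chow ZT 1. Slc12a1, the salt transporter blocked by loop diuretics, was at 150 FPKM in EpSA ZT 1 and 230 FPKM in chow ZT 1. Endothelial markers had a mean of -0.30, with 10 of 10 below 0 against 7550 of all 13344 genes, and a mean of 0.17 at ZT 25. Proximal tubule markers (0.08), collecting duct markers (-0.07) and podocyte markers (0.06) had means near that of all genes, -0.04. Collagen and matrix genes had a mean of -0.26, and Col1a1 was at 1.96 FPKM in EpSA ZT 1 and 3.80 FPKM in chow ZT 1.

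**Figure D3:**
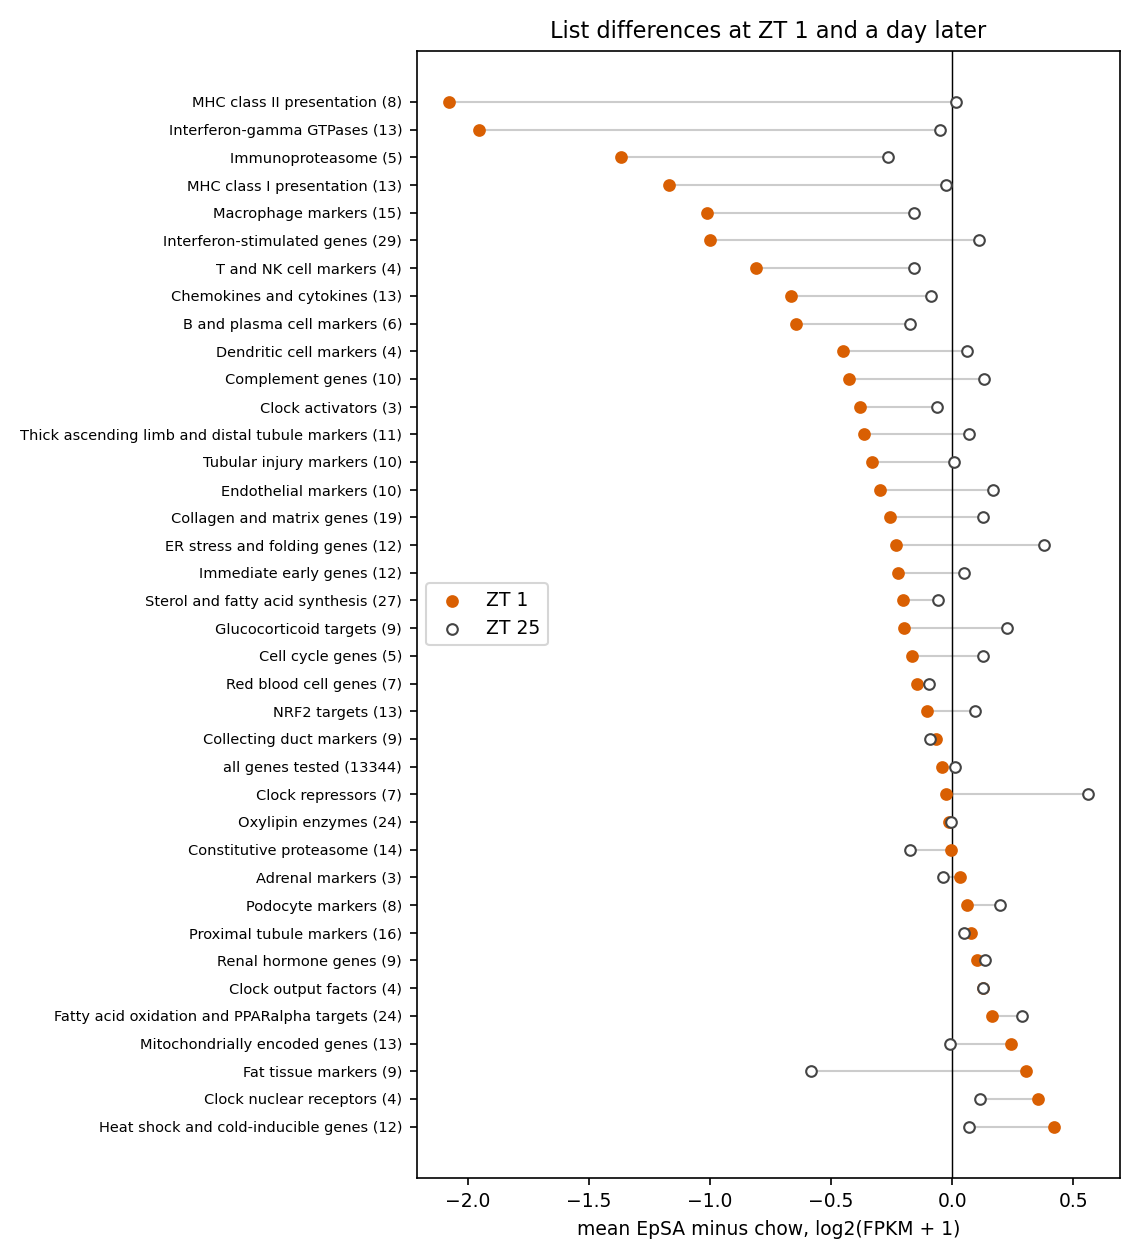
Mean EpSA minus chow difference on log2(FPKM + 1) (x axis) of each gene list with at least 3 genes compared (rows, with the number of genes in brackets) and of all genes, at ZT 1 (filled) and at ZT 25 (open). The 6 lists with the lowest means at ZT 1, from -2.078 to -1.001, lie between -0.26 and 0.11 at ZT 25.

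The ZT 25 means give the same clock hour in other mice on another day. In chow, 78 genes were higher at ZT 1 than at ZT 25 by at least 1 (0.585%) and 29 were lower. In EpSA, 32 genes were higher at ZT 1 than at ZT 25 and 65 were lower. Of the 110 genes lower in EpSA at ZT 1, 64 were among the 78 that were high in chow ZT 1 against chow ZT 25, and 15 were lower by at least 1 in EpSA ZT 1 than in EpSA ZT 25. Chow ZT 1 was the highest of the 14 means for 59 of the 110, against 10.5% of all genes. EpSA ZT 1 was the lowest for 38 of the 110, and the share of all genes with EpSA ZT 1 lowest was not counted. The choice of genes by this difference favours both extremes, so these counts are a description. Set against chow ZT 25 in place of chow ZT 1, EpSA ZT 1 was lower by at least 1 in 30 genes, and the mean difference was -0.067 for class II genes, -0.131 for GTPases, -0.151 for the immunoproteasome, 0.013 for class I, -0.031 for interferon-stimulated genes and -0.238 for macrophage markers.

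A group of lower genes lay outside the interferon and immune lists. Mfsd2a, a lysophospholipid transporter, was at 2.31 FPKM in EpSA ZT 1 and 15.8 FPKM in chow ZT 1, and at 6.46 FPKM in EpSA ZT 25 and 19.0 FPKM in chow ZT 25. It was lower in EpSA on both days, by 2.34 and 1.43 on the log2(FPKM + 1) scale, and EpSA ZT 1 was the lowest of its 14 means. Ubd, an interferon-inducible ubiquitin-like modifier, was at 2.03 FPKM in EpSA ZT 1 and 14.4 FPKM in chow ZT 1. Cdkn1a, which encodes the cell cycle inhibitor p21 and stood in the lists of tubular injury markers and glucocorticoid targets, was at 5.47 FPKM in EpSA ZT 1 and 12.2 FPKM in chow ZT 1, but at 11.3 FPKM in EpSA ZT 25 and 5.87 FPKM in chow ZT 25.

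Pigr and Tsku are named here after their values were seen. Pigr, the receptor that carries IgA across epithelia, shared with Cd74 the high chow means at ZT 1 and ZT 13. It was at 54.7 FPKM in EpSA ZT 1 and 203 FPKM in chow ZT 1, and at 44.9 FPKM in EpSA ZT 13 and 315 FPKM in chow ZT 13. Unlike Cd74, Pigr was also lower in EpSA at ZT 17 and 21, with differences of -0.61 and -0.99, against 0.21 and 0.09 for Cd74. Tsku, which encodes the secreted protein tsukushi, was at 3.18 FPKM in EpSA ZT 1, while its other 13 means lay between 7.36 and 12.6 FPKM. For Tsku it was thus the EpSA ZT 1 mean that stood apart.

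The 30 higher genes had no shared theme among the lists: 15 had no symbol or only a model or clone name, and 6 were small RNA genes such as Mir23b and Snord98. Of the 30, 3 were also higher by at least 1 at ZT 25. Mir23b, a microRNA gene, was at 3.15 FPKM in EpSA ZT 1 and 0.30 FPKM in chow ZT 1, and at 3.99 FPKM in EpSA ZT 25 and 0.84 FPKM in chow ZT 25. Snord98, a small nucleolar RNA, was at 2.00 FPKM in EpSA ZT 1 and listed at 0 in chow ZT 1. The FPKM of such short genes rests on very few fragments. Rps15-ps2, a pseudogene with the highest difference of the named genes (1.80), may share reads with its parent gene and had -1.66 at ZT 25.

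Pdk4, which restrains pyruvate dehydrogenase so that fuel use shifts to fatty acids, was at 29.2 FPKM in EpSA ZT 1 and 9.98 FPKM in chow ZT 1. At ZT 25 it was at 24.3 FPKM in EpSA and 19.4 FPKM in chow. For the 24 fatty acid oxidation and PPARalpha target genes the mean was 0.16, with 18 above 0 and 1 past 1. The 27 sterol and fatty acid synthesis genes compared had a mean of -0.20, with 20 below 0, 7 above 0 and 0 past 1. Of these, Scd1 and Fasn, which make monounsaturated and saturated fatty acids, had 0.93 and 0.65. The sterol genes Insig1 and Sqle had -0.80 and -0.64.

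Hspa1a and Hspa1b, near-identical copies that encode the inducible chaperone HSP70, were at 17.0 and 33.7 FPKM in EpSA ZT 1 and at 6.26 and 17.4 FPKM in chow ZT 1. Both were higher in EpSA ZT 1 than in any of the other 13 means. At ZT 25 they were at 2.47 and 6.27 FPKM in EpSA and at 3.68 and 9.84 FPKM in chow. Of 12 heat shock and cold-inducible genes, 11 were above 0 and the mean was 0.42. Nap1l5, a nucleosome assembly protein-like gene, was at 4.58 FPKM in EpSA ZT 1 and 1.49 FPKM in chow ZT 1. Slc36a2, a proton-coupled amino acid transporter, was at 4.21 FPKM in EpSA ZT 1 and 1.48 FPKM in chow ZT 1. In each diet Slc36a2 was highest at ZT 5, and its lowest mean was EpSA ZT 13 (0.65 FPKM), as for the fat tissue list. The part of surrounding fat in the Slc36a2 values was not tested. Clec2h, a lectin-like receptor gene, was at 16.1 FPKM in EpSA ZT 1 and 6.27 FPKM in chow ZT 1, where the other 13 means lay between 12.1 and 22.4 FPKM, so the chow ZT 1 mean stood apart.

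The 13 protein genes of the mitochondrial genome were all above 0, from 0.12 (mt-Co2) to 0.36 (mt-Nd5), with a mean of 0.24 and 0 past 1. Chow ZT 1 was below chow ZT 25 for this list by 0.31 on average, and EpSA ZT 1 was below EpSA ZT 25 by 0.06. Among enzymes of oxylipin metabolism, which make and break down epoxides of fatty acids, 0 of 24 were past 1. Their mean was -0.01, with 13 above 0, 11 below 0 and the lowest at -0.76, so the list had no common direction. The 2 named next are among the higher ones. Ephx2, the soluble epoxide hydrolase, was at 222 FPKM in EpSA ZT 1 and 165 FPKM in chow ZT 1, and Cyp2j9, an epoxygenase, was at 7.95 FPKM in EpSA ZT 1 and 3.76 FPKM in chow ZT 1. At ZT 25 Ephx2 was at 223 FPKM in EpSA and 233 FPKM in chow.

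**Figure D4:**
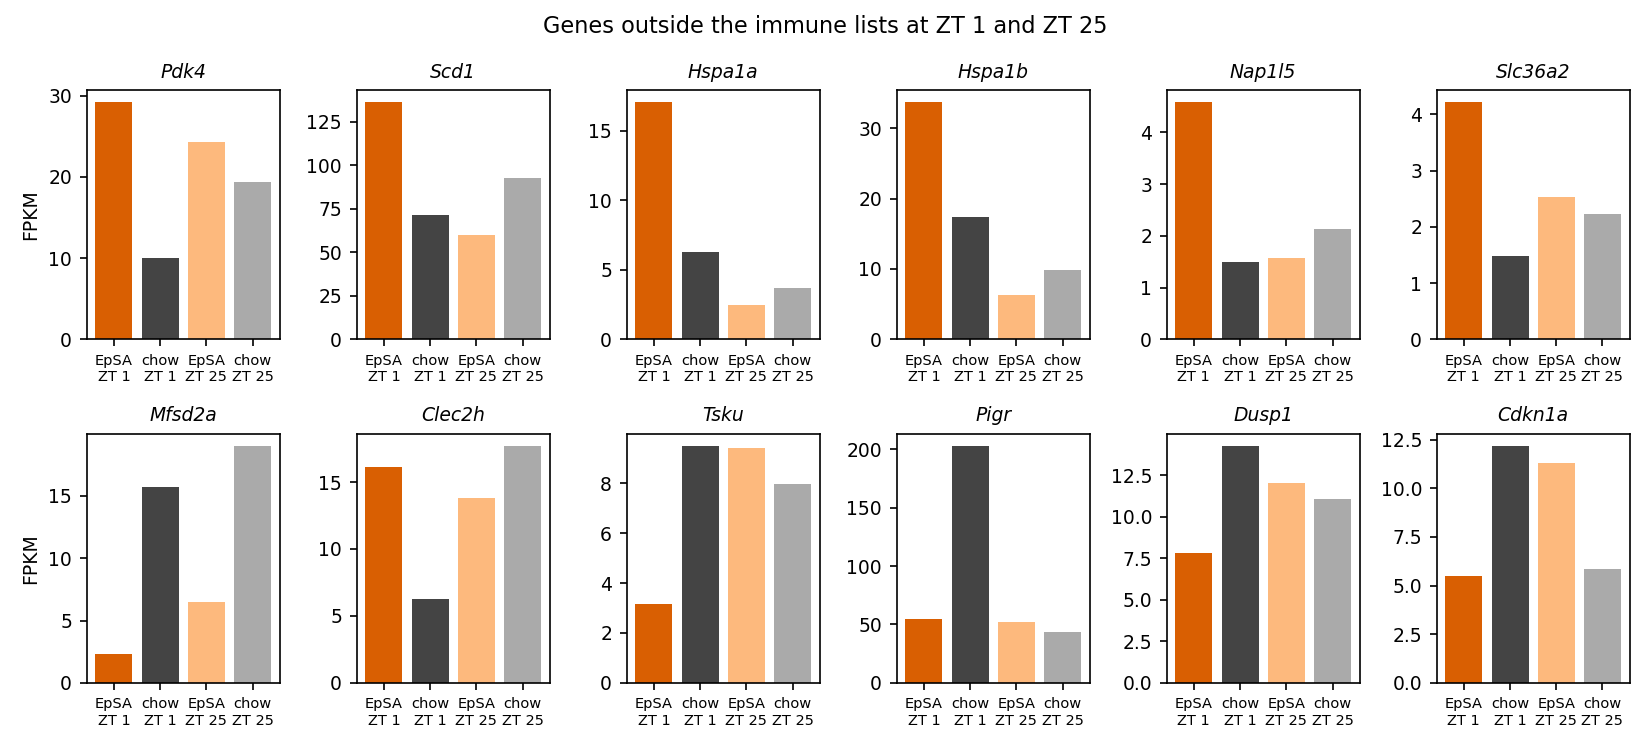
FPKM (y axes, from 0) of 12 genes outside the immune lists in the EpSA ZT 1, chow ZT 1, EpSA ZT 25 and chow ZT 25 means (bars, left to right), without error bars because each bar is 1 deposited mean. Mfsd2a is lower in EpSA on both days, while of the 4 bars Hspa1a is highest in EpSA ZT 1 and Pigr in chow ZT 1.

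The circadian clock runs on a loop in which ARNTL (BMAL1) with CLOCK or NPAS2 activates Per, Cry and Nr1d genes, whose products repress the loop. ZT 1 falls just after lights on, when Arntl RNA is high and that of Dbp is low in mouse tissues. Of 18 clock genes compared, 1 was past 1. Nr1d1, which encodes the repressor REV-ERBalpha, was at 10.5 FPKM in EpSA ZT 1 and 4.46 FPKM in chow ZT 1, and its relative Nr1d2 was at 16.6 FPKM in EpSA ZT 1 and 8.04 FPKM in chow ZT 1. At ZT 25 Nr1d1 was at 3.04 FPKM in EpSA and 4.37 FPKM in chow, with differences of 1.07 on the first day and -0.41 on the next. The 6 differences at the other times lay between -0.91 and 0.06 for Nr1d1 and between -0.33 and 0.38 for Nr1d2.

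Of 3 activators compared, 0 were past 1, and their mean difference was -0.38. Arntl was at 2.81 FPKM in EpSA ZT 1 and 4.68 FPKM in chow ZT 1, Npas2 at 2.16 FPKM in EpSA and 3.25 FPKM in chow, and Clock at 4.88 FPKM in EpSA and 5.47 FPKM in chow. The differences of Arntl (-0.58) and Npas2 (-0.43) lay within those at the other times, which went down to -0.75 and -0.81. Cry1, a repressor, was at 1.58 FPKM in EpSA ZT 1 and 3.70 FPKM in chow ZT 1, a difference of -0.87, against 0.58 at ZT 25. The output factor Dbp was at 2.38 FPKM in EpSA ZT 1 and 1.21 FPKM in chow ZT 1. Per2 was equal at ZT 1, at 4.31 FPKM in EpSA and 4.33 FPKM in chow, and at 13.0 FPKM in EpSA ZT 25 and 5.39 FPKM in chow ZT 25. Among the other clock genes, Per1 (0.32), Per3 (0.40), Cry2 (-0.10), Ciart (-0.20), Bhlhe40 (0.28), Rora (-0.02), Tef (0.16), Hlf (0.03) and Nfil3 (-0.30) were nearer to equal at ZT 1.

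**Figure D5:**
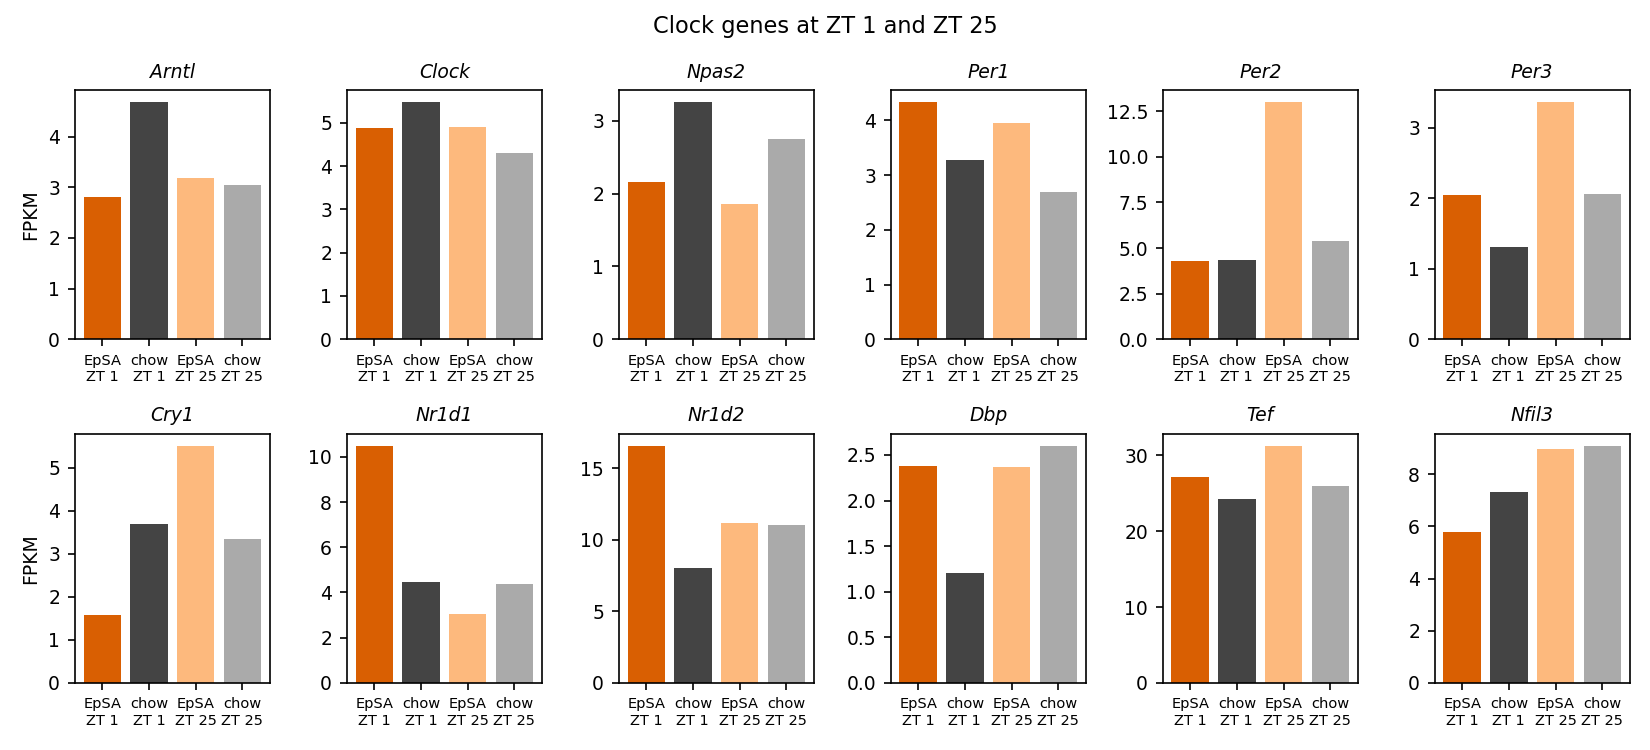
FPKM (y axes, from 0) of 12 clock genes in the EpSA ZT 1, chow ZT 1, EpSA ZT 25 and chow ZT 25 means (bars, left to right), each bar 1 deposited mean without an error. Nr1d1 and Nr1d2 are higher in EpSA at ZT 1, at 10.5 and 16.6 FPKM against 4.46 and 8.04 FPKM in chow, and Cry1 is lower.

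Whether the ZT 1 difference departed from the differences at the other 6 times was tested with limma on the 14 means, with time and diet as terms. The error is then the spread of the difference over times, and not between mice. No gene passed a Benjamini-Hochberg adjusted p of 0.05 (0 of 13344, 0.0%), and 818 had an unadjusted p under 0.05 (6.13%). The lowest adjusted p of this limma test was 0.583, reached by Tsku among others. Tsku departed by -1.54 ± 0.23 (SE), Dusp1, a phosphatase that switches off MAP kinases, by -1.07 ± 0.17, and Cyp4a12a, a fatty acid hydroxylase, by 1.06 ± 0.18. Dusp1 was at 7.84 FPKM in EpSA ZT 1 and 14.3 FPKM in chow ZT 1, the single time at which EpSA was the lower diet. The unadjusted limma p was 0.046 for Igtp and 0.15 for Cd74, whose differences at ZT 13, among the times they were set against, were -2.82 and -2.86. Without ZT 21, limma called 2 genes, Clec2h (higher) and Tsku (lower), and with no filter on low values it called 100 of 38370.

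As a count without a test, the ZT 1 difference lay below those at all 6 other times for 2564 genes (19.2%) and above them for 1804 (13.5%). It lay below them for 12 of 13 GTPases, 27 of 29 interferon-stimulated genes, 13 of 15 macrophage markers and 5 of 5 immunoproteasome genes, but for 3 of 8 class II genes, the others being lower still at ZT 13.

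Taking ZT 1 and ZT 25 as 2 means per diet at 1 clock hour, limma called 0 of 13344 genes for EpSA against chow (0.0%), and 530 had an unadjusted p under 0.05 (3.97%). Igtp had an unadjusted limma p of 0.078 and Cd74 of 0.13. Without the chow ZT 25 mean, limma called 42 genes, 2 higher and 40 lower, and without any other mean it called 0. Mir23b had the lowest p, with a difference of 1.55 ± 0.19 (SE) and an adjusted limma p of 1.00. Cyp27b1, the enzyme that activates vitamin D in the kidney, was at 1.41 and 1.53 FPKM in EpSA ZT 1 and ZT 25 and at 0.41 and 0.60 FPKM in chow ZT 1 and ZT 25, and it did not pass either. Mfsd2a had an unadjusted limma p of 0.0030 in this test. With 2 residual degrees of freedom the comparison is coarse.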

How the data were processed

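Total kidney RNA was read in pairs of 150 bases, per the labels' protocols. How reads were aligned, counted and scaled, and on which build, is not given in the sources used here. Deposited were 2 tables, 1 per diet, with 7 columns each; the header of the EpSA table uses another abbreviation, and that table was assigned by the file name that the labels of the EpSA samples cite. The deposited values are taken as FPKM, which the headers do not name. Their last decimal is always 0, 3 or 7, so each was treated as a mean that the authors took over 3 mice. No spread between mice and no depth can be given.

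From these means, differences of log2(FPKM + 1) (pseudocount 1) were computed for genes with a mean of at least 1. Limma 3.58.1 in R 4.3.3 was fitted to the means, with 5 residual degrees of freedom for ZT 1 against the other times and 2 for ZT 1 with ZT 25, two-sided, with Benjamini-Hochberg adjustment over 13344 genes. It was also run on simulated data, with an outcome that is not reported here. The rhythm statistics in the tables were not used here. Python 3.11.15, numpy 2.4.6, pandas 2.3.3 and matplotlib 3.10.9 served otherwise. Gene symbols were found for 52073 of 56691 identifiers.

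The comparison and the 39 gene lists were chosen with earlier results of these data known. Named genes are the 15 lowest and 15 highest differences (2 and 11 genes with only a model name, a clone name or no symbol passed over), all clock genes, up to 4 members per list with the largest differences and members past 1, of which a selection is printed. A few genes picked in this way are left out and not reported here. Alternatives covered the pseudocount, filter, scaling, the ZT 25 means, times left out, time as a block and, added after the data were seen, a variance trend in limma.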

Additional observations from a re-analysis of the deposited data

How the results depend on the processing

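The counts of lower and higher genes changed with the handling of low values: against 110 lower and 30 higher, a pseudocount of 0.1 gave 211 and 96, a pseudocount of 5 gave 41 and 3, and a mean of at least 5 FPKM gave 54 and 10. No filter gave 50 higher. Centring or quantile scaling gave 92 to 97 lower and 34 to 40 higher. With chow ZT 25 as the reference, 30 genes were lower, and with EpSA ZT 25 in place of EpSA ZT 1, 56 were higher. Of 39 lists, 6 had a mean past 1; with a pseudocount of 5 there were 2, and with chow ZT 25 as the reference 0. The cause was not tested.

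Set against chow ZT 25, EpSA ZT 1 was no longer lower in the class I list (mean 0.013), nor in H2-DMb2 (0.018), H2-DMa (0.011), Tgtp2 (0.129), Ifi47 (0.074), Ifit1 (0.021), Ifit2 (0.03), Ifit3b (0.072), Parp14 (0.03), Zbp1 (0.013), Gbp4 (0.003), H2-K1 (0.105), B2m (0.214), H2-D1 (0.009), Nlrc5 (0.099), H2-Q4 (0.176), Tap2 (0.006) and Ctss (0.056), nor higher in Clec2h (-0.126) and Xlr3b (-1.11). With EpSA ZT 25 in place of EpSA ZT 1, the sign turned for Rps15-ps2 (-0.239), Hspa1a (-1.06), Nr1d1 (-0.433), Mir5620 (-0.489), Rps26-ps1 (-0.5), Mir7030 (-0.832) and Ighm (0.044). List means against chow ZT 25 were -0.067 for class II, -0.131 for GTPases and -0.031 for interferon-stimulated genes.

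For the departure of ZT 1 from the other times, limma called 100 genes with no filter (38370 genes), and 0 to 2 with a time left out, the 2 (Clec2h and Tsku) without ZT 21. For ZT 1 with ZT 25, it called 0 to 42 with a mean left out, the 42 (2 higher, 40 lower) without chow ZT 25, where the lone chow ZT 1 mean is assumed to vary like the others. All other settings gave 0. Spread from all 14 means gives the same fit by construction. No paired analysis was possible because the deposited columns are means that carry no replicate numbers. Without depth or values per mouse, low genes cannot be given an error.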

Other observations

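Genes of protein folding in the endoplasmic reticulum had opposite differences on the 2 days. Hspa5, the chaperone BiP, was at 105 FPKM in EpSA ZT 1 and 162 FPKM in chow ZT 1, and at 252 FPKM in EpSA ZT 25 and 154 FPKM in chow ZT 25. Creld2 was at 20.4 FPKM in EpSA ZT 1 and 31.7 FPKM in chow ZT 1, and at 49.6 FPKM in EpSA ZT 25 and 29.3 FPKM in chow ZT 25. Over the 12 genes compared the mean difference was -0.23 at ZT 1 and 0.38 at ZT 25, and none of the 12 was past 1 at ZT 1. Here the chow means of both days lay close together and the EpSA means apart, unlike in the class II genes.

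Of 12 immediate early genes, 9 were below 0 and 0 were past 1 at ZT 1, with a mean of -0.22. Dusp1, Zfp36 and Ier3 had the lowest differences (-0.79, -0.71 and -0.70), and Nr4a1 the highest (0.31). Fkbp5, a glucocorticoid target, had -0.82. The metallothionein genes Mt1 and Mt2, also glucocorticoid targets, had 0.33 and 0.72. Foxi1, a transcription factor of intercalated cells, was at 18.3 FPKM in EpSA ZT 1, the highest of its 14 means, and at 12.5 FPKM in chow ZT 1. These are single means without a replicate check.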
